A study of Rattus norvegicus with 4 samples.

Results

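Genes for the enzymes that turn arachidonic acid into prostaglandins, thromboxane and leukotrienes were examined in NR8383 cells, a macrophage line established from the lung lavage of a normal rat. The set held 10 genes listed by the function of their product: Pla2g4a, Ptgs1, Ptgs2, Ptges, Tbxas1, Alox5, Alox5ap, Lta4h, Ltc4s and Alox15. Every probe of these genes was taken, which gave 12 probes and 23 spots on each array, out of 16581 named genes and 45598 probes. The samples were 4 cultures, labelled as replicates 1 to 4, that had been exposed for 4 h to 0.9 cm2/cm2, as the labels give the dose, of the carbon black powder Printex90. Sample titles carry the abbreviations CB and ALI, the latter commonly standing for air-liquid interface, and the labels name no genetic change. The cells came from 1 line after 20 passages and were grown in medium with 15% serum. Untreated cultures belong to the design of the study but were not analysed here, so no value is a change caused by the particles. The question the arrays can answer is which steps of eicosanoid synthesis had a transcript signal in exposed cells, and how evenly the 4 cultures showed it.

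Eicosanoids are short-lived lipid signals that macrophages release within minutes of a stimulus. Cytosolic phospholipase A2 frees arachidonic acid from membranes, cyclooxygenases convert it to prostaglandin H2, and terminal synthases make prostaglandin E2 or thromboxane A2 from that product. In the other branch 5-lipoxygenase, helped by its membrane partner FLAP, makes leukotriene A4, which a hydrolase turns into the neutrophil attractant leukotriene B4 and a synthase into leukotriene C4, the parent of the cysteinyl leukotrienes. Alveolar macrophages are a known source of thromboxane, prostaglandins and leukotriene B4.

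RNA of each culture was labelled with 1 dye and hybridised to 1 array, and all 4 arrays lie on 1 slide. Values are processed spot intensities on a linear scale, and a level is the log2 intensity relative to the 75th percentile of all probes of that array, so that a level of 0 lies at that percentile. A gene was called detected on an array when the scanner software marked any spot of it as well above background. That percentile was an intensity of 99.4, 83.8, 101 and 127 on replicates 1 to 4. Negative-control spots, which match no rat transcript, had a median intensity between 2.72 and 3.19, and the lowest intensity called well above background was between 9.17 and 10.3. No spot was saturated. Of 12 macrophage markers 10 were detected on all 4 arrays, among them Cd68, Lyz2 and Csf1r, where 50.8% of all named genes were. The scavenger receptor Marco and the macrophage marker Adgre1 were called on 1 and 2 arrays. Between the arrays the summed signal of the macrophage list ranged from 1034 to 1073 times the 75th percentile. A linear sum leans on its brightest gene, here Lyz2 with a level of 9.45 ± 0.04 (SD, n = 4), and the 10 detected markers had a median SD of 0.18. The same sum ranged from 0.187 to 0.236 for 4 measured platelet genes, from 0.507 to 0.847 for 9 mast cell and basophil genes and from 0.309 to 0.553 for 5 eosinophil genes. It ranged from 13 to 20.5 for 7 neutrophil genes and from 2.09 to 2.67 for 8 lung epithelial genes. Detection on all 4 arrays was found for 0 of 4 platelet, 1 of 9 mast cell and basophil and 1 of 5 eosinophil genes. It was found for 2 of 7 neutrophil and 1 of 8 lung epithelial genes. The genes so detected were Hdc, Prg2, Camp, Lcn2 and Foxj1, of which Hdc and Foxj1 were called on all 4 arrays by 1 of 2 probes. The platelet gene Gp9 was called on 2 arrays, and the epithelial genes Krt5 and Ager on 3 and 1. The platelet genes Pf4 and Ppbp, the mast cell genes Cpa3 and Kit and the eosinophil gene Epx were called on no array. Nor were the neutrophil genes Elane, S100a8, S100a9, Csf3r and Ltf and the epithelial genes Epcam, Cdh1, Sftpc, Sftpb and Scgb1a1.

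In the exposed cells 5 of the 10 enzyme genes were detected on all 4 arrays, namely Pla2g4a, Ptgs1, Tbxas1, Alox5 and Lta4h. By the same rule 50.8% of all named genes were detected, so the share of the enzymes was close to that of all genes. A call on at least 3 arrays gave the same 5 enzymes, against 54% of all named genes. The prostanoid and the leukotriene branch each had 2 of 4 genes detected. Ptges, Alox5ap and Ltc4s were detected on some arrays, and Ptgs2 and Alox15 on none, where 36.9% of all named genes lay. Genes with several probes have more chances of a call, and 65.6% of those were detected, against 46.6% of genes with 1 probe. Ptgs1 and Tbxas1 have 2 probes each, and the other 8 members, of which 3 were detected, have 1. The plot of levels by probe shows that the other probe of Ptgs1 was not called on 3 arrays, although the gene was detected.

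**Figure D1:**
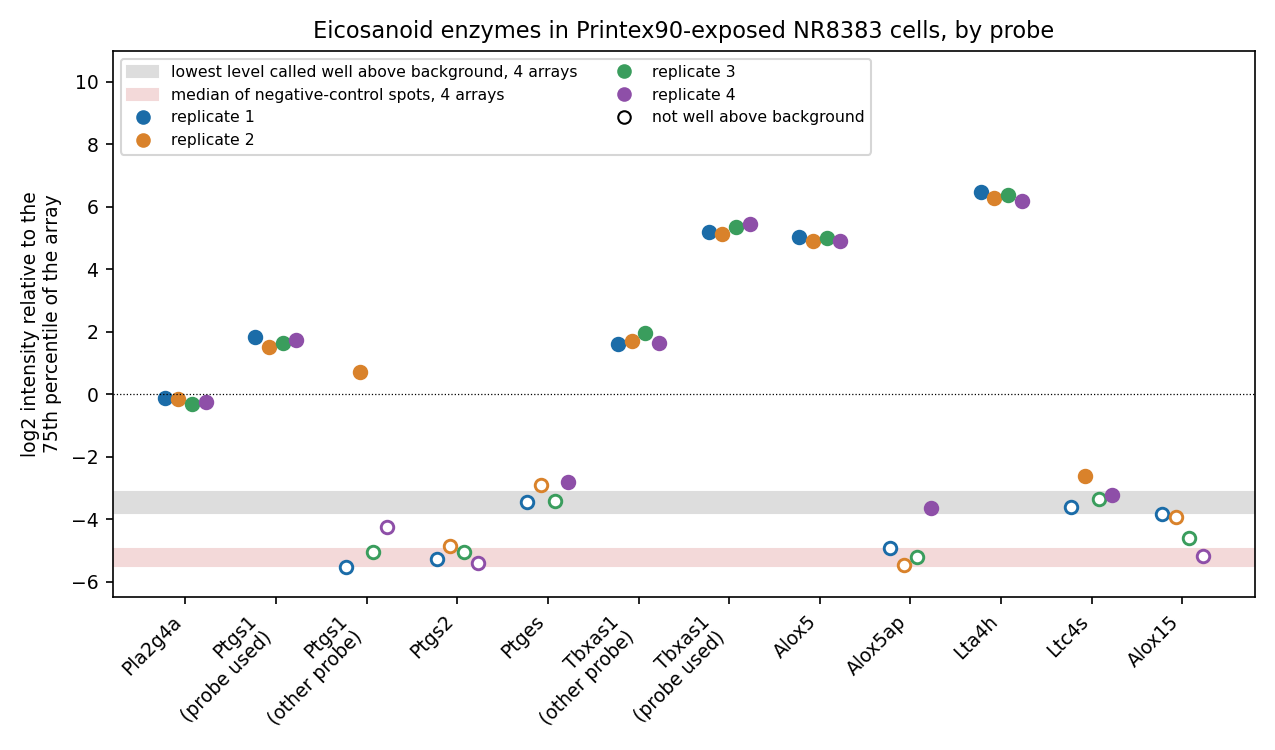
Level of each probe of the 10 enzyme genes on each of the 4 arrays, as log2 intensity relative to the 75th percentile of the array. Filled points were well above background and open points were not; the grey band spans the lowest level so called on the 4 arrays and the pink band the medians of the negative controls. Pla2g4a, Ptgs1, Tbxas1, Alox5 and Lta4h are filled on all 4 arrays, and the other probe of Ptgs1 is filled on replicate 2 alone.

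Pla2g4a encodes cytosolic phospholipase A2, which releases arachidonic acid. Its intensity was 92.6, 76.0, 81.0 and 108 on replicates 1 to 4. All 4 values were well above background and lay close to the 75th percentile of their array, with a level of -0.20 ± 0.10 (SD, n = 4). The highest and the lowest level, on replicates 1 and 3, differed by 0.22, or 1.16-fold.

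The 2 cyclooxygenase genes gave opposite calls. Ptgs1, the constitutive isoenzyme, had an intensity of 356, 238, 314 and 421 on replicates 1 to 4 by its probe A_44_P137448, and all 4 arrays called it. Its level was 1.68 ± 0.14 (SD, n = 4), highest on replicate 1 at 1.84 and lowest on replicate 2 at 1.51. Ptgs2, the isoenzyme known to be induced by inflammatory stimuli, had an intensity of 2.59, 2.88, 3.08 and 2.99 by its only probe, below the 95th percentile of the negative controls of each array, and no array called it. Its measured level of -5.14 ± 0.24 (SD, n = 4) was highest on replicate 2 and lowest on replicate 4. The subtracted percentile was smallest on replicate 2 and largest on replicate 4. Of 6053 genes detected on no array, 50.2% were likewise highest on replicate 2 and 61% lowest on replicate 4. A probe reports only the transcript region it matches, and a single probe without signal gives no bound for other regions.

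The other Ptgs1 probe, A_64_P375942, behaved differently. Its intensity was 2.16 on replicate 1, 137 on replicate 2, 3.05 on replicate 3 and 6.68 on replicate 4, so that it was well above background on replicate 2 alone. The spot lies in a region where other spots of replicate 2 were bright too. Of the 122 other spots in its block of 16 rows and 8 columns, 36.1% stood at least 1 log2 unit above every other array, against 2.37% of all spots of that array. The spot itself was 5.65 above the mean of the other arrays, and the median of its block was 1.08 above. Averaging both probes would put Ptgs1 at a level of -0.92 in place of 1.68.

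**Figure D2:**
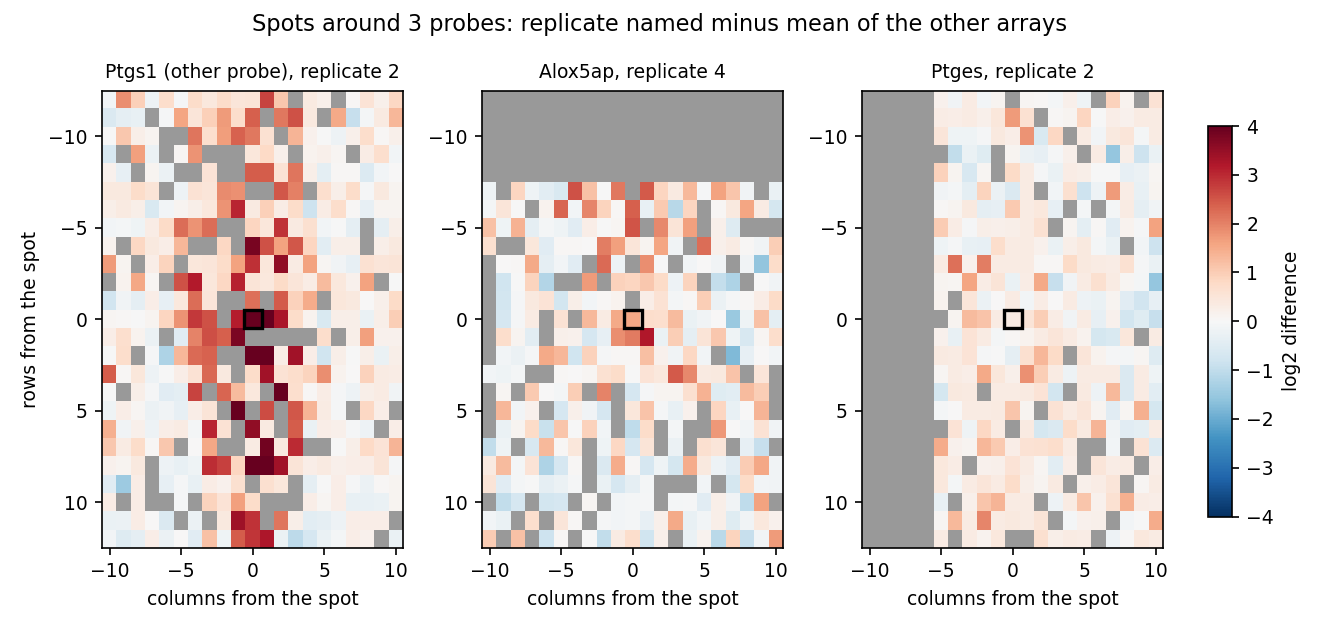
Spots around 3 probes, coloured by the log2 difference between the replicate named above each panel and the mean of the other arrays, with rows and columns counted from the probe (black square). Colours end at a difference of 4 either way, and grey cells are control spots, spots left out or places outside the array. A patch of red surrounds the other Ptgs1 probe on replicate 2, while the surroundings of Alox5ap on replicate 4 and of Ptges on replicate 2 are paler, with block medians of 0.41 and 0.33.

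The bases upstream of both cyclooxygenase genes and of Alox5 are printed because the 3 genes catalyse the committed steps and split into detected and undetected. They were taken from RefSeq on the GRCr8 assembly, the 250 bases before the annotated start, 5′ to 3′ on the strand of the gene. Capitals mark matches on either strand to 8 searched motifs: the GC box GGGCGG, the E-box CACGTG, the cyclic AMP response element TGACGTCA, the AP-1 site TGANTCA, the C/EBP site TTNNGNAAT, the PU.1 core GAGGAA, the TATA box TATAAA, and the NF-kB site.
Ptgs1, chr3:39981169-39981418, plus strand: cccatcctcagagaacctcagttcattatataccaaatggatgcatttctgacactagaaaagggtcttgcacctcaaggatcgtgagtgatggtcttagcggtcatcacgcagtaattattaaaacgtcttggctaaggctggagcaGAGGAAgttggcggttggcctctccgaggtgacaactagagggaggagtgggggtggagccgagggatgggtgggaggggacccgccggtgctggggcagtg
Ptgs2, chr13:64713813-64714062, plus strand: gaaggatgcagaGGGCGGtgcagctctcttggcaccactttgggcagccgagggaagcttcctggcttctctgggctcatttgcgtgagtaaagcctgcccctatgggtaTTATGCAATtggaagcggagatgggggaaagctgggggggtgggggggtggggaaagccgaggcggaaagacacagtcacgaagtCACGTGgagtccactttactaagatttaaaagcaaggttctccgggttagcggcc
Alox5, chr4:151251127-151251376, minus strand: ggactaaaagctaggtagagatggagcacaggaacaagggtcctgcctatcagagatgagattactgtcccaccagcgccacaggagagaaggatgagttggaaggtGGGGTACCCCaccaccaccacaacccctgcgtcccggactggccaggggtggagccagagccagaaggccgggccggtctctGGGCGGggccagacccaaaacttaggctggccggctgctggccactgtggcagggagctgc

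The window of Ptgs2 held 1 GC box, 1 C/EBP site and 1 E-box. Among the 8 members with a RefSeq window, which are all but Alox5ap and Alox15, the E-box and the C/EBP site were found in Ptgs2 alone. Of 33469 windows of the same length, 5.59% held the E-box and 10.9% the C/EBP site. The Ptgs1 window held 1 PU.1 core, which 4 of the 8 members and 23.3% of all windows hold. The Alox5 window, with 62.8% G and C against a median of 51.2%, held 1 GC box and a palindromic match to the NF-kB site, counted once on each strand. GC boxes were found in 4 of the 8 members and in 30.5% of all windows, and the NF-kB site in 1 member and 6.33%. The cyclic AMP response element was found in no member and in 1.59% of windows. The TATA box was found in Pla2g4a and Tbxas1, the AP-1 site in Tbxas1, and no motif in Ltc4s. These are matches of letters and say nothing of a factor bound there. In the order of genes on GRCr8, Pla2g4a and Ptgs2 lie on the same chromosome with no coding gene between them, so the neighbours gave opposite calls.

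Among the terminal prostanoid synthases, Tbxas1 was detected and Ptges mostly was not. Tbxas1 encodes thromboxane A synthase. Its probe A_44_P260072 had an intensity of 3628, 2963, 4135 and 5571 on replicates 1 to 4, and its probe A_44_P1082004 one of 304, 273, 393 and 400. Both were called on all 4 arrays, with levels of 5.29 ± 0.14 and 1.73 ± 0.16 (SD, n = 4 for both), and their mean was 3.51. The probes ordered the cultures differently: the former was highest on replicate 4 at 5.45 and the latter on replicate 3 at 1.96. Ptges, the inducible microsomal synthase of prostaglandin E2, had an intensity of 9.05, 11.2, 9.43 and 18.3. It was called on replicate 4 alone, with a level of -3.15 ± 0.34 (SD, n = 4). On replicate 2 it lay above 9.69, the lowest intensity called on that array, without a call, so that lowest value is not a cut-off. Its spot on replicate 2 lies in a bright block, whose median was 0.33 above the mean of the other arrays. All 4 arrays passed the less strict flag, which asks only for a signal that is positive and differs from background.

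Alox5, the first enzyme of the leukotriene branch, was detected on all 4 arrays. On this scale it had the smallest SD of the members, but with normexp on the median signals its SD of 0.185 was the largest of the 5 detected enzymes. Its probe has 2 spots on the array, and the intensity was 3277, 2537, 3227 and 3857 on replicates 1 to 4. The levels were 5.04, 4.92, 5.00 and 4.92, a level of 4.97 ± 0.06 (SD, n = 4) with a span of 0.12 between highest and lowest, or 1.09-fold. The same spot of the pair was the higher one on all 4 arrays, with an SD between the spots of an array of 0.066 to 0.081. Of all 8424 detected genes, taken at every level, 4.97% had a smaller SD.

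Alox5ap encodes FLAP, the membrane protein that presents arachidonic acid to 5-lipoxygenase. It had an intensity of 3.33, 1.92 and 2.74 on replicates 1 to 3 and of 10.2 on replicate 4. The former were near the negative controls, and replicate 4 was the only array on which it was called. The mean level was -4.80 ± 0.80 (SD, n = 4), the largest SD of the 10 enzymes. Its spot on replicate 4 lies in a block where 15.3% of the 124 other spots stood at least 1 log2 unit above every other array, against 2.44% of all spots of that array. The spot was 1.54 above the mean of the other arrays, and the median of its block 0.41 above. Leaving out replicate 4 could only leave it without a call, since it was called on that array alone. The part of the bright block in the call on replicate 4 was not tested. Alox5 was thus called on all arrays, while the single probe of its partner was not called well above background on 3 of 4.

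Lta4h and Ltc4s compete for leukotriene A4. Lta4h, the hydrolase that makes leukotriene B4, is printed 10 times on the array, so that its values rest on more spots than any other member. Its mean intensity was 8848, 6499, 8484 and 9336 on replicates 1 to 4, and 2 spots marked as outliers, 1 each on replicates 3 and 4, were left out. Levels were 6.48, 6.28, 6.39 and 6.20, or 6.34 ± 0.12 (SD, n = 4). The SD between spots of an array was 0.049 to 0.098, below the SD between arrays of 0.122 on this scale. Under the alternatives the SD between arrays ranged from 0.066 with quantile normalization to 0.428 with the array median, so this order depends on the scaling. Single spots of different arrays overlapped, the lowest on replicate 1 reading 6.33 and the highest on replicate 4 reading 6.39. Position by position, the level on replicate 1 was above that on replicate 4 at 9 of 9 shared spots. These spots are copies of 1 probe and share the percentile subtracted on their array, 99.4 on replicate 1 and 127 on replicate 4. Before that subtraction the mean intensity ran the other way, at 8848 and 9336. Ltc4s, the synthase of leukotriene C4, had an intensity of 8.19, 13.6, 9.89 and 13.5 on replicates 1 to 4. It was called on replicates 2 and 4, neither spot lying in a bright block, and had a level of -3.20 ± 0.42 (SD, n = 4). All 4 arrays passed the less strict flag.

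**Figure D3:**
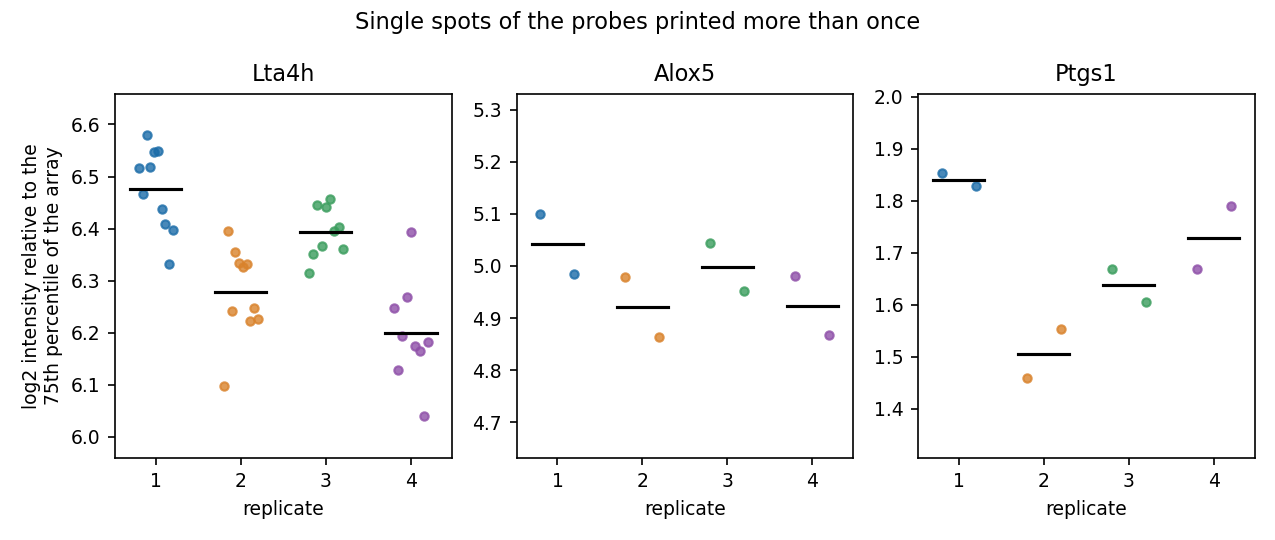
Single spots of the 3 members whose probe is printed more than once, as log2 intensity relative to the 75th percentile of the array, by replicate; bars are means over the spots. Lta4h has 9 or 10 spots on each array, whose means run from 6.20 on replicate 4 to 6.48 on replicate 1, and Alox5 and Ptgs1 have 2 spots each.

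Alox15, a lipoxygenase of a separate branch that macrophages of some tissues make in quantity, had an intensity of 7.0, 5.51, 4.16 and 3.53 on replicates 1 to 4. No array called it well above background, but it passed the less strict flag on all 4. With that flag 8 of the 10 members were detected, where 61.7% of all named genes were, and Ptgs2 and Alox5ap were the members left out. Requiring every probe of a gene left 4 members, without Ptgs1, against 45% of all named genes.

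The 5 detected enzymes differed little between the cultures. Their SDs lay between 0.059 for Alox5 and 0.144 for Tbxas1, with a median of 0.122, beside a median of 0.165 over all 8424 detected genes. The share of detected genes with a smaller SD was 18% for Pla2g4a, 30.0% for Lta4h, 39.5% for Ptgs1 and 40.7% for Tbxas1. The median and these shares are taken over detected genes of every level, and no comparison with genes of like level was made. On this scale Pla2g4a, Ptgs1, Alox5 and Lta4h were highest on replicate 1, as were 31% of all detected genes, and Ptgs1, Tbxas1 and Alox5 were lowest on replicate 2, as were 26.7%. The median deviation of the 5 genes from their own 4-array mean was 0.10, -0.06, 0.03 and -0.03 on replicates 1 to 4, and that of all detected genes 0.03, -0.02, 0.03 and -0.03. These orders depend on the processing. The 6 alternatives were 5 ways to scale or average and 1 that kept the marked spots. Among them Alox5 was highest on replicate 1 in 3, Ptgs1 in 3, Pla2g4a in 4 and Lta4h in 5. Averaging probes could not change the order for Alox5, Pla2g4a and Lta4h, which have 1 probe each, so 1 of their agreements was fixed beforehand. For Alox5 the SD ranged from 0.021 with the percentile taken over detected probes to 0.377 with the array median.

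**Figure D4:**
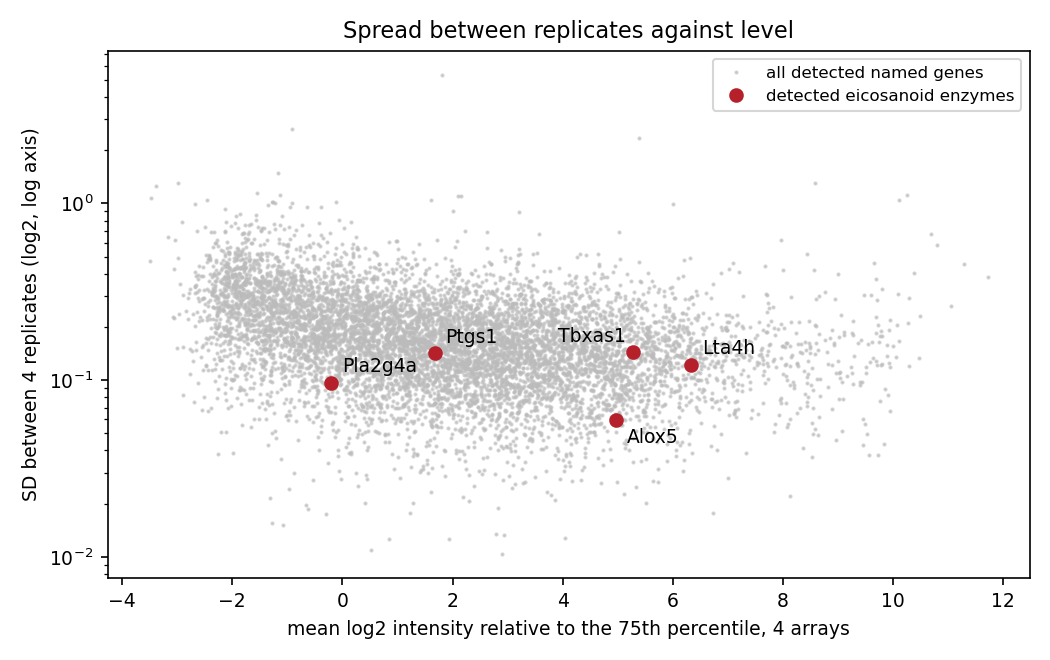
SD between the 4 replicates against mean level for every detected named gene (grey) and the 5 detected enzymes (red), in log2 units, with the SD on a log axis. The enzymes lie between an SD of 0.059 and 0.144, inside the cloud of all detected genes, whose median is 0.165.

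Beyond the 10 enzymes, 78 other genes of the pathway were measured in 11 lists, and 39 of them were detected on all 4 arrays, 10 on some and 29 on none. This share of 50% again lay beside 50.8% for all named genes. The lists were uneven. Arachidonate reacylation had 6 of 7 genes detected and regulators of the enzymes 8 of 9, while other lipoxygenases and leukotriene receptors had 1 of 5 each.

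**Figure D5:**
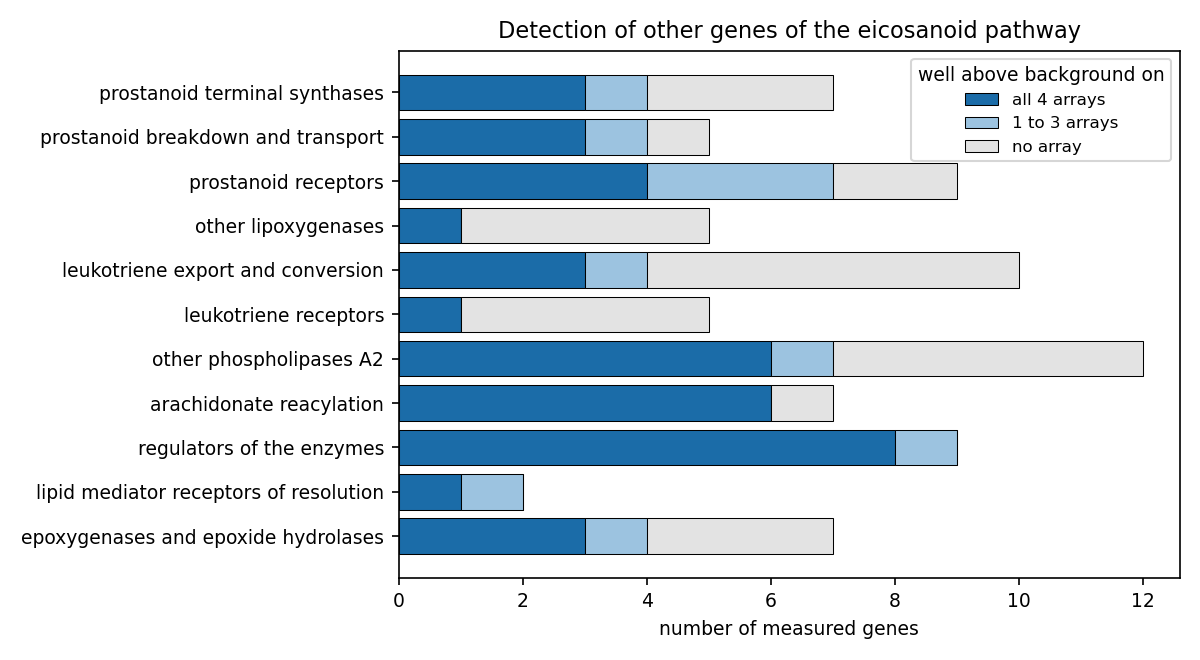
Number of measured genes in each of 11 lists of the eicosanoid pathway, divided into genes well above background on all 4 arrays, on 1 to 3 arrays and on no array. Most regulators and reacylation genes fall in the first class, while 4 of 5 other lipoxygenases and 4 of 5 leukotriene receptors fall in the last.

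Prostaglandin synthases other than Ptges were detected in 3 of 7 cases. The further prostaglandin E synthases Ptges2 and Ptges3, the latter also a co-chaperone, had levels of 1.02 ± 0.05 and 5.59 ± 0.20 (SD, n = 4 for both). Cbr1, a carbonyl reductase that can act on prostaglandin E2, had a level of 5.76 ± 0.10 (SD, n = 4). The prostaglandin D synthases Ptgds and Hpgds were called on 3 arrays and on none, and the prostacyclin synthase Ptgis and Prxl2b on none. For breakdown and transport, the reductases Ptgr1 and Ptgr2 had levels of -0.22 ± 0.10 and -0.03 ± 0.20, and Abcc4, an exporter of prostaglandins, one of 2.15 ± 0.13 (SD, n = 4 for all). Averaging the 2 probes of Abcc4 would give a level of 0.60. Hpgd, the main enzyme of prostaglandin inactivation, was called on 1 array with a measured level of -3.86 ± 0.99 (SD, n = 4), and the importer Slco2a1 on none.

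Prostanoid receptors were detected in 4 of 9 cases. Ptger2, a receptor for prostaglandin E2 that raises cyclic AMP, had a level of 2.08 ± 0.23, and Ptgir, the prostacyclin receptor, one of -0.19 ± 0.26 (SD, n = 4 for both). Ptgdr, a prostaglandin D2 receptor, stood at -1.30 ± 0.11 (SD, n = 4). The thromboxane receptor Tbxa2r had levels of -1.56, -1.49, -0.27 and -1.26 on replicates 1 to 4, so that replicate 3 was high. Ptger3, Ptger4 and Ptgfr were called on 3, 2 and 2 arrays, and Ptger1 and Ptgdr2 on none, Ptger1 with a measured level of -3.74 ± 0.67 (SD, n = 4).

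Past leukotriene A4, the machinery for cysteinyl leukotrienes was called in part. Abcc1, which exports leukotriene C4, had a level of 3.85 ± 0.10 (SD, n = 4) by 1 of its 2 probes, the other not being called on all arrays. Averaging the 2 probes of Abcc1 would give a level of -0.53. Dpep2, a dipeptidase that makes leukotriene E4, had a level of 3.01 ± 0.16 (SD, n = 4). Cyp4f6, of the cytochrome family that degrades leukotriene B4, had a level of 2.09 ± 0.33 (SD, n = 4). Ggt1 and Ggt5, which make leukotriene D4, were called on no array, Ggt1 with a measured level of -5.04 ± 0.12 (SD, n = 4), and neither were Dpep1, Cyp4f1, Cyp4f4 and Cyp4f18. Dpep3 was called on 1 array. Of the receptors, Ltb4r, the high-affinity receptor for leukotriene B4, had a measured level of -5.20 ± 0.26 and Ltb4r2 one of -3.33 ± 0.54 (SD, n = 4 for both), and both were called on no array, as were Cysltr1 and Cysltr2. Gpr17, a related orphan receptor, had a level of -1.10 ± 0.29 (SD, n = 4). Among other lipoxygenases Alox12b, an enzyme known from skin, was detected at -1.50 ± 0.27, and Alox12, the platelet enzyme, had a measured level of -5.15 ± 0.22 without a call (SD, n = 4 for both). Alox15b, Aloxe3 and Alox12e were not called either.

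Other phospholipases A2 were detected in 6 of 12 measured cases. Pla2g15, the lysosomal enzyme, had a level of 5.46 ± 0.05, and Pla2g7, which inactivates platelet-activating factor, one of 4.59 ± 0.13 (SD, n = 4 for both). Pla2g2d and Pla2g3, secreted enzymes, had levels of 2.00 ± 0.06 and -0.16 ± 0.15, the calcium-independent Pla2g6 one of 1.86 ± 0.13 and Plaat3 one of -0.11 ± 0.16 (SD, n = 4 for all). Pla2g1b was called on 3 arrays, with a measured level of -2.99 ± 1.22 (SD, n = 4). Pla2g2a, the secreted enzyme of inflammation, was called on none at -5.39 ± 0.33 (SD, n = 4), as were Pla2g2f, Pla2g4b, Pla2g5 and Pla2g10. Genes listed under arachidonate reacylation, the return of arachidonate to membranes, were all detected but Mboat2. The ligases Acsl4, which prefers arachidonate, and Acsl3 had levels of 1.17 ± 0.11 and 2.07 ± 0.09 (SD, n = 4 for both). The acyltransferases Lpcat2, Lpcat3, Mboat7 and Mboat1 had levels of 1.95 ± 0.22, 3.39 ± 0.24, 1.79 ± 0.21 and 1.75 ± 0.07 (SD, n = 4 for all).

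Regulators of the enzymes were detected but for Zfp36, a protein that destabilises the messenger of Ptgs2, which was called on 2 arrays. The kinases Mapk14 and Mapkapk2, which act on phospholipase A2 or 5-lipoxygenase, had levels of 5.31 ± 0.12 and 4.76 ± 0.12 (SD, n = 4 for both). Mapk3 had levels of 8.83, 11.34, 9.93 and 10.87 on replicates 1 to 4, with an SD of 1.11 that exceeded those of all 10 enzymes. Cotl1, a protein that binds 5-lipoxygenase, had a level of 7.85 ± 0.06, and Anxa1, an inhibitor of phospholipase A2, one of 7.59 ± 0.14 (SD, n = 4 for both). Cebpb and Elavl1, a transcription factor and a messenger-stabilising protein that act on Ptgs2, had levels of 7.71 ± 0.19 and 5.33 ± 0.13 (SD, n = 4 for both). Cotl1 and Cebpb have 2 probes each, and averaging them would give levels of 4.59 and 5.49. Among receptors for resolving lipids, Gpr18 was detected at 2.58 ± 0.13 and Cmklr1 was called on 2 arrays, at -3.11 ± 1.24 (SD, n = 4 for both). Of 7 genes for epoxygenases and epoxide hydrolases, Cyp2j3, Ephx1 and Ephx2 were detected, at -0.61 ± 0.23, -0.43 ± 0.17 and -1.87 ± 0.21, and Cyp2j4 was called on 3 arrays at -2.58 ± 0.18 (SD, n = 4 for all).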

How the data were processed

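Total RNA of 4 cultures of 1 group was measured on 1-colour Agilent arrays, 1 array each, from 100 ng of RNA per the labels. The deposited values are spot intensities, background-subtracted per the file headers; the submitters' processing notes name Agilent Feature Extraction, version 11.0.1.1, with no normalization between arrays. Probes were named by matching transcript accessions, without version, to the RefSeq gene table of GRCr8, which named 21109 of 45598 probes. Per the file headers the array grid was built on rn4, so no gene coordinates are given other than those of the promoter windows, which have their own build. Among 58717 non-control spots, those marked as non-uniform or population outliers were left out (750 to 1551 per array), replicate spots of a probe were averaged as log2 intensities, and the 75th percentile of each array was subtracted. A gene has the level of its probe with the highest mean among those measured on all 4 arrays. With 1 group no comparison between groups was tested, Dixon's ratio was used only to look for a replicate apart from the others, and the number of arrays, 4, limits the precision. Design text calls the replicates biological.

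Members, gene lists and marker lists were chosen with earlier results of these data known. Named with values are all members, and from each pathway list its first 2 measured genes and those detected on all 4 arrays, except 1 regulator that is not reported here. Bright blocks, of 16 rows and 8 columns, are those where over 10% of the spots without a gene name exceeded all other arrays by at least 1 log2 unit. Alternatives for the calls were a less strict flag, 3 of 4 arrays, and a call by each probe of a gene; for the levels, quantile normalization, the array median or the percentile over detected probes as centre, averaging a gene's probes, and including undetected genes. Keeping marked spots, removing bright blocks from all arrays and leaving out each replicate were tried for both; normexp (limma) with an offset of 50 on the median signals was added after seeing the data. Scripts were tested on simulated data and ran in Python 3.11.15 (pandas 2.3.3, numpy 2.4.6, matplotlib 3.10.9), and in R 4.3.3 for limma 3.58.1.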

Additional observations from a re-analysis of the deposited data

Results flagged for a closer look

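The values of 51 probes or genes, 12 probes of the enzymes and 39 detected pathway genes, were examined for a replicate that stood far from the other 3, judged by its gap to the nearest value over the whole range. Lpcat3 and Mboat1, a pair of acyltransferases of phospholipids, exceeded Dixon's critical value for 4 samples, both with replicate 1 lowest. Lpcat3 had a level of 3.04 on replicate 1 against 3.54, 3.50 and 3.47 on replicates 2 to 4. Mboat1 had a level of 1.64 on replicate 1 against 1.78, 1.80 and 1.78. Chance alone marks about 1 in 20 such sets, so 2 of 51 is no excess. No probe of the 10 enzymes exceeded it.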

How the results depend on the processing

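The count of 5 enzymes detected on all 4 arrays became 8 with the less strict flag and stayed between 4 and 5 under the other detection alternatives, including each replicate left out and the bright blocks removed. For the other pathway genes the count of 39 ranged from 37 without the bright blocks to 53 with the less strict flag. The median SD of the detected enzymes, 0.122, became 0.377 with the array median and 0.194 with no detection filter, which lets in genes near background; under the remaining alternatives it lay between 0.0975 and 0.142. The array median lies near background, and its use was the only scaling that moved this value by over 1.5 times. Levels of all 10 enzymes stayed within 1 SD under quantile normalization and with marked spots kept. Leaving out 1 replicate moved them by -0.39 to 0.26. With 4 values such a shift cannot reach 1 SD, so that rule could not fail there. Centring on another percentile moved them all by a constant, 3.57 for the array median and -3.41 for the percentile over detected probes. With normexp on the median signals they moved by -0.88 to 3.88, and 1 of 10 stayed within 1 SD. Averaging probes moved Ptgs1 to -0.92 and Tbxas1 to 3.51. With the bright blocks removed no level could be given for Ptges and Alox5ap. Normexp on mean signals was not run; median signals took its place. No paired analysis was possible because the arrays form 1 group. Signals near background limit what can be said of Ptgs2, Ptges, Alox5ap, Ltc4s and Alox15.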
